A study of Mus musculus with 20 samples.

Results

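Ribosome-bound mRNA of hippocampal granule cells was compared between postnatal day 5 (P5) and postnatal day 15 (P15) in 6 of the study's 20 libraries, 3 of each age, all carrying the same batch label. They were chosen by age and batch, with earlier results of these data known. The other 2 P5 libraries belong to another batch and are set beside the results only as levels. All mice carried Rbp4-Cre and the RiboTag allele, and the labels give no further treatment. In this system Cre switches on an HA-tagged form of the ribosomal protein RPL22, and tagged ribosomes are pulled from the hippocampal lysate with anti-HA beads. The cells sampled are therefore those in which Rbp4-Cre has acted, together with any RNA carried along from other cells. Poly-adenylated RNA was sequenced. The labels give no sex, no time of day, and no word on whether a library held 1 animal or several, so the p-values below measure the spread between these libraries, which may be technical.

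Granule cells are the principal neurons of the dentate gyrus. Most are born around and after birth, and over the first postnatal weeks they end axon and dendrite outgrowth, receive their inputs and take on the metabolism and signalling of an adult neuron. Growth of this kind runs on tubulin, actin and matrix genes, and maturation on new sets of kinases, ion carriers and transcription factors. Synapse and myelin genes are left aside in what follows.

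Levels are given in CPM, the counts of a gene per M counts in the library. Prox1, the transcription factor that defines granule cells, stood at 573, 591 and 537 CPM at P5 and 599, 581 and 571 CPM at P15, with no difference called (adjusted p = 0.48). With another scaling, given at the end, Prox1 was called lower (log2 change -0.16). The summed level of 14 granule cell markers was 1980 to 2130 CPM at P5 and 3080 to 3210 at P15, and 10 of the 14 were called higher. Markers of other cells moved too. Summed oligodendrocyte and myelin markers went from 271 to 370 CPM to 1260 to 2170 CPM, and astrocyte markers from 1010 to 1090 to 1680 to 2090 CPM. Stem and progenitor markers went the other way, from 525 to 636 CPM to 85.2 to 118 CPM, with all 14 called lower. Total counts per library were 15.9 M at P5 and 18.7 to 19.4 M at P15, at which 3 counts equal 0.162 to 0.18 CPM. The Y-linked Ddx3y was present in the 3 P5 libraries (20.6 to 36.1 CPM) and in P15 replicate 1 (29.5 CPM). It was at 0.217 and 0 CPM in the other 2 P15 libraries, while Xist was present in all 6 libraries. Sex make-up may therefore differ between the libraries of the 2 ages, and its part in the changes below was not tested.

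Of 14555 genes tested, 9666 were called by edgeR's quasi-likelihood test at an adjusted p under 0.05, which is 66.4% of the genes tested. Higher at P15 were 4935 (33.9%) and lower 4731 (32.5%). A change of at least 2-fold was found for 3008 genes (20.7%), 1192 higher (8.19%) and 1816 lower (12.5%). The libraries of the 2 ages did not overlap in 70.2% of genes. Since most genes passed, counts of members called below are read against these shares. CPM values were scaled by trimmed means (TMM). Scaling by total counts instead lowers every log2 change by about 0.14, and then 38.7% of calls are higher in place of 51.1%. All changes are given on the TMM scale, as log2 changes with their standard error, P15 relative to P5.

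**Figure D1:**
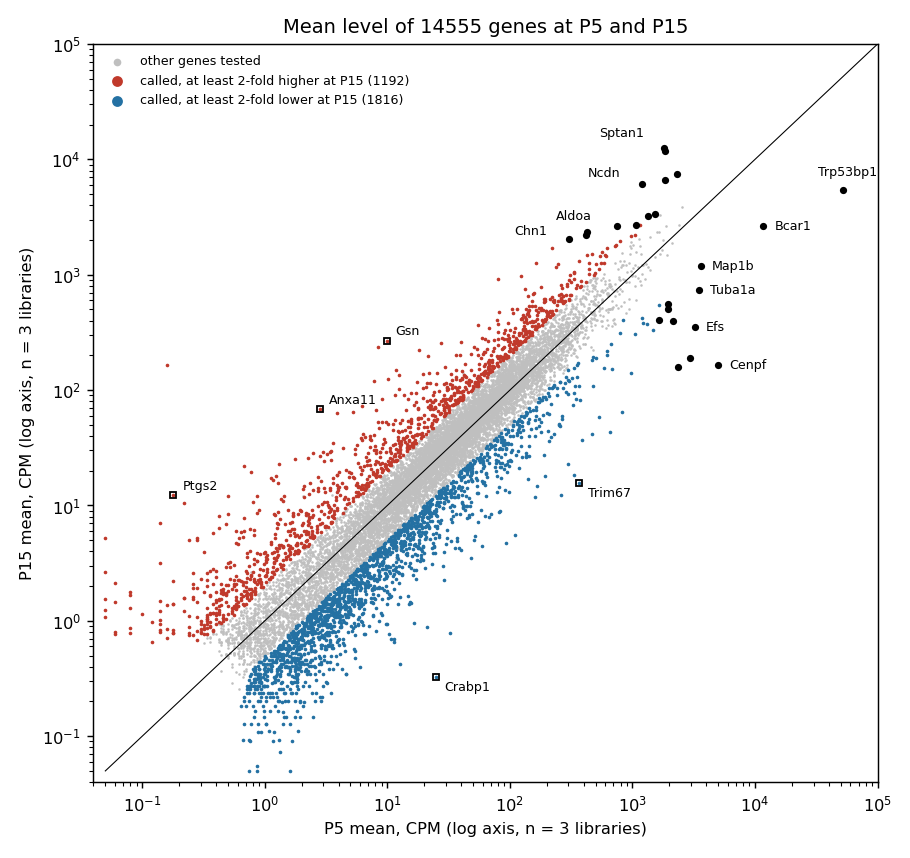
Mean CPM of each gene tested at P5 (x axis) and P15 (y axis), 3 libraries each, both axes logarithmic, with means below 0.05 drawn at 0.05. Red and blue points are genes called and at least 2-fold higher (1192) or lower (1816) at P15, grey points all others, filled black points the 12 largest gains and 12 largest losses in CPM, open squares 5 genes with large folds. Trp53bp1 lies far to the right of every other gene.

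Weighted by abundance, the exchange was large. The 4935 genes called higher took 39.9 to 40.6% of a library's counts at P5 and 62.9 to 63.2% at P15, and the 4731 called lower went from 39.7 to 40.5% to 19.0 to 19.3%. In the P5 libraries of the other batch these shares were 43.7 to 44.8% and 36.2 to 37.1%. These genes and the 12 below were chosen on the same P5 and P15 values. The direction of each shift was therefore fixed in advance, and only its size is described. The 12 largest losses in CPM alone made up 9.2 to 10.5% of P5 libraries and 1.11 to 1.28% of P15 libraries. Most of that came from Trp53bp1 (mm10 chromosome 2, 121193281 to 121271407, GENCODE vM21), which encodes the DNA repair protein 53BP1. Its level was 56797, 51472 and 49511 CPM at P5 and 5852, 5597 and 4728 CPM at P15, 5.18 to 5.95% of all counts at P5 and 0.457 to 0.549% at P15 (log2 change -3.29 ± 0.08, adjusted p = 8.7e-14). The ages did not overlap for this gene, which was a condition for naming it. The P5 libraries of the other batch lay at 48892 and 56003 CPM. The scaffold genes Bcar1, at 13488, 11110 and 10570 CPM at P5 and 2834, 2612 and 2479.9 CPM at P15, and Efs, of the same Cas family (from 3227 to 349.9 CPM), fell in the same way. So did Cenpf, a centromere protein of dividing cells, at 5513, 4848 and 4701 CPM at P5 and 176, 169 and 150.1 CPM at P15 (log2 change -4.93 ± 0.08, adjusted p = 2e-16), and the laminin chain gene Lama4 (from 2952 to 190.4 CPM). The table gives 1 total per gene, so where along these genes the reads lay was not tested.

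Where the same batch's P10 libraries lay says how early the change had come. Among the 1192 genes at least 2-fold higher at P15, the P10 mean was over 50% of the way from P5 to P15 in 93.3% of genes, with a median of 85.7% of the way on a log2(CPM + 0.5) scale. Among the 1816 at least 2-fold lower, it was over 50% of the way in 96.1%, with a median of 88.5%. These shares include genes whose P10 mean lay at or past the P15 mean, 132 of those higher and 522 of those lower. The genes were chosen on the P5 and P15 values, so this is a description.

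Genes of 43 function lists were counted next, and 23 lists had more members lower than higher, 17 more higher, and 3 equal numbers. Among all genes tested the median log2 change was 0.00.

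**Figure D2:**
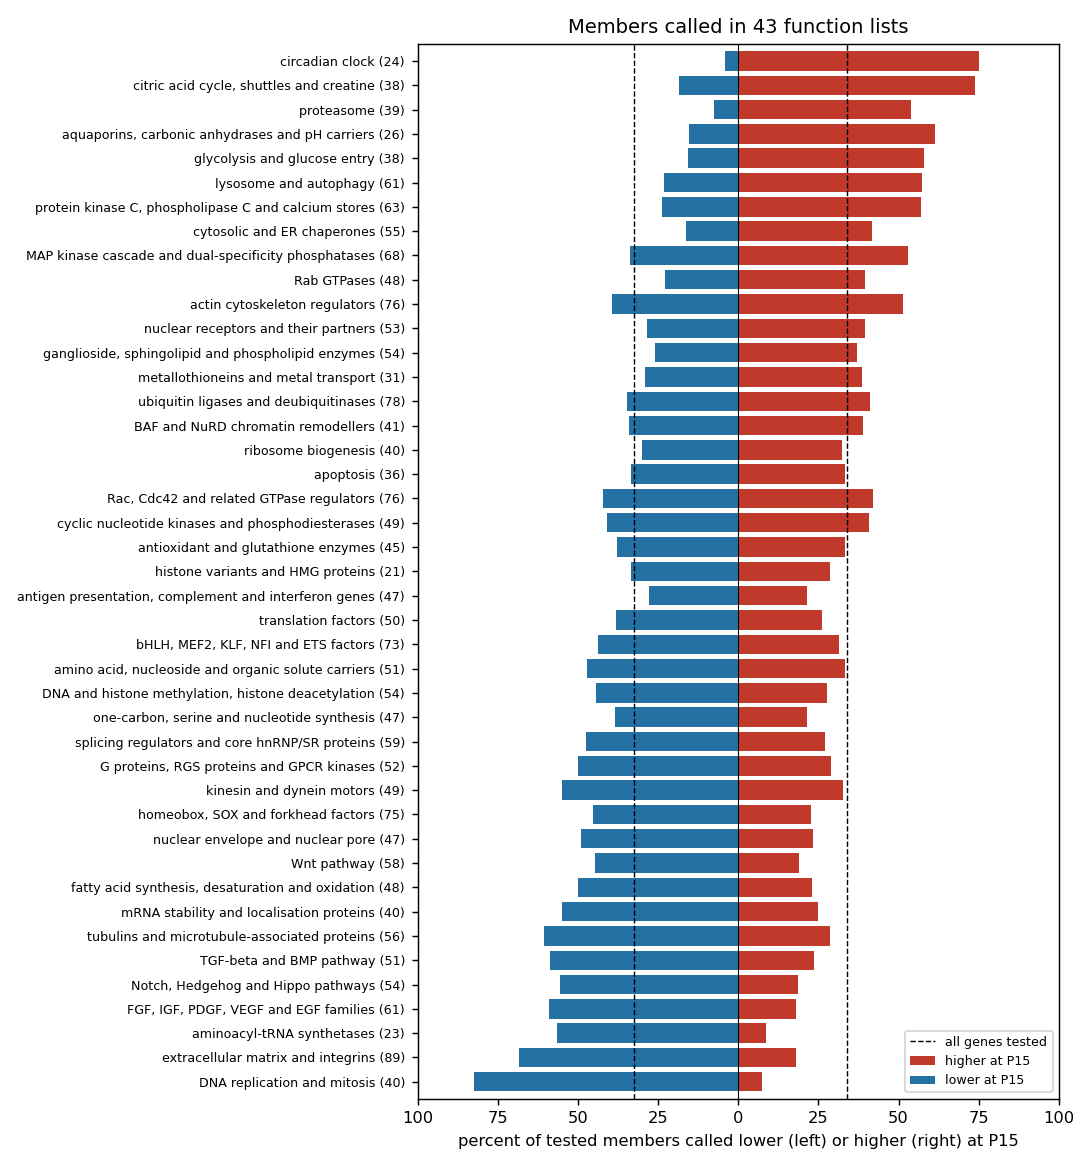
Percent of the tested members of each of 43 function lists that were called higher (red, right) or lower (blue, left) at P15, with the number of members tested in brackets. Dashed lines mark all genes tested, 33.9% higher and 32.5% lower. The clock list (75% higher) and the replication list (82.5% lower) stand at the ends.

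Genes of the microtubule skeleton, which growing neurites depend on, mostly fell. Of 56 tubulins and microtubule-associated proteins tested, 34 were lower and 16 higher (median log2 change -0.28, summed level 28800 to 30200 CPM at P5 and 16800 to 18800 at P15). Tuba1a, the main alpha-tubulin gene of young neurons, was at 3454, 3376 and 3734 CPM at P5 and 839, 719 and 648 CPM at P15 (log2 change -2.26 ± 0.09, adjusted p = 1.5e-09). Tubb2b went from 2127 ± 126 to 394 ± 27.2 CPM, Tubb5 from 1932 to 558 CPM and Tubb3 by a log2 change of -2.13 ± 0.19. Among proteins that bind microtubules, Map1b (log2 change -1.61 ± 0.07), Mapt, which encodes tau (-1.97 ± 0.05), Dpysl3, a growth cone protein (-3.88 ± 0.10), and the tubulin-sequestering Stmn1 (-2.14 ± 0.25) fell. The members that rose were of another set. Tuba4a stood at 284, 263 and 260.3 CPM at P5 and 693, 661 and 612 CPM at P15, Tppp, which bundles microtubules and is also strong in oligodendrocytes, at 121, 129 and 129 CPM at P5 and 429.8, 415 and 420.3 CPM at P15, and Map1a, the partner of Map1b in mature dendrites, rose 2.31-fold. None of these overlapped between ages, which for Tppp and Map1a was a condition for naming them. Tubulin genes share long stretches of near-identical sequence, and how reads matching several genes were counted is not given in the sources used here, so their separate levels are uncertain.

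Motor proteins carry cargo along these tracks. Of 49 kinesin and dynein genes, 27 were lower and 16 higher (median -0.27). The dynein heavy chain Dync1h1 fell (741, 635 and 619.8 CPM at P5 and 241, 259 and 259 CPM at P15), and so did Kif21b, a kinesin that regulates microtubule growth (-1.83 ± 0.06). The fall of Dync1h1 was as large against the P5 libraries of the other batch (-1.48), but there the test missed the threshold (adjusted p = 0.053). Kif17, a dendritic motor, rose 3.26-fold and Kifc2 3.25-fold. Kif23, which acts in cell division, fell by 2.48 on the log2 scale.

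Actin genes did not move as a block. Of 76 regulators, 39 were higher and 30 lower, and 32 and 34 when scaled by total counts. The cytoplasmic actin Actg1 fell (642, 609 and 635 CPM at P5 and 383, 366 and 349 CPM at P15). Thymosin Tmsb10, which holds actin monomers, fell 4.97-fold, and Gap43, a growth cone protein, went from 684 ± 98.7 to 153 ± 52.1 CPM. Cap2, a protein that recycles actin, stood at 94.2, 93.4 and 87.9 CPM at P5 and 339.8, 332 and 319.6 CPM at P15 (log2 change 1.85 ± 0.05, adjusted p = 1.4e-15), and the formin Fmnl1 rose 2.62-fold. Gsn, which severs actin filaments, rose 27.2-fold (11.4, 8.08 and 10 CPM at P5 and 224, 278 and 302 CPM at P15). Gsn is also strong in oligodendrocytes, whose marker Mbp was at 87.5, 78 and 76.7 CPM at P5 and 698, 862 and 1203 CPM at P15, and the part of those cells in its rise was not tested.

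Among the 12 highest gains in CPM were spectrins, which form the lattice beneath the neuronal membrane. Sptan1, the alpha chain, stood at 1801, 1630.4 and 2007 CPM at P5 and 10742, 13708 and 12940 CPM at P15 (log2 change 2.78 ± 0.11, adjusted p = 3.4e-08), and Sptbn1 rose 3.21-fold. Together both genes took 0.387 to 0.482% of counts at P5 and 1.63 to 2.09% at P15, with 1.44 to 1.64% in the P5 libraries of the other batch. These rises depended on which P5 libraries were used. In the P5 libraries of the other batch Sptan1 was already at 7467 and 6471 CPM and Sptbn1 at 9261 and 8183 CPM. Against those libraries the log2 change of Sptan1 was 0.81 in place of 2.78 and that of Sptbn1 turned to -0.25. Other genes of the actin and spectrin cortex behaved likewise. The log2 change of Mprip, which joins actin to myosin phosphatase, was 2.46 with the P5 libraries of the batch and 0.82 with the others. For the microtubule plus-end gene Clip1 these were 1.68 and 0.12, for the myosin heavy chains Myh14 2.23 and 0.73 and Myh10 0.91 and -0.52, for drebrin Dbn1 0.91 and -0.47, and for ankyrin Ank2 0.56 and -0.96. In P10 replicate 3 Sptan1 was also low among its age (11874, 13041 and 5638 CPM). Whether preparation or age sets these levels cannot be told apart within these libraries.

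**Figure D3:**
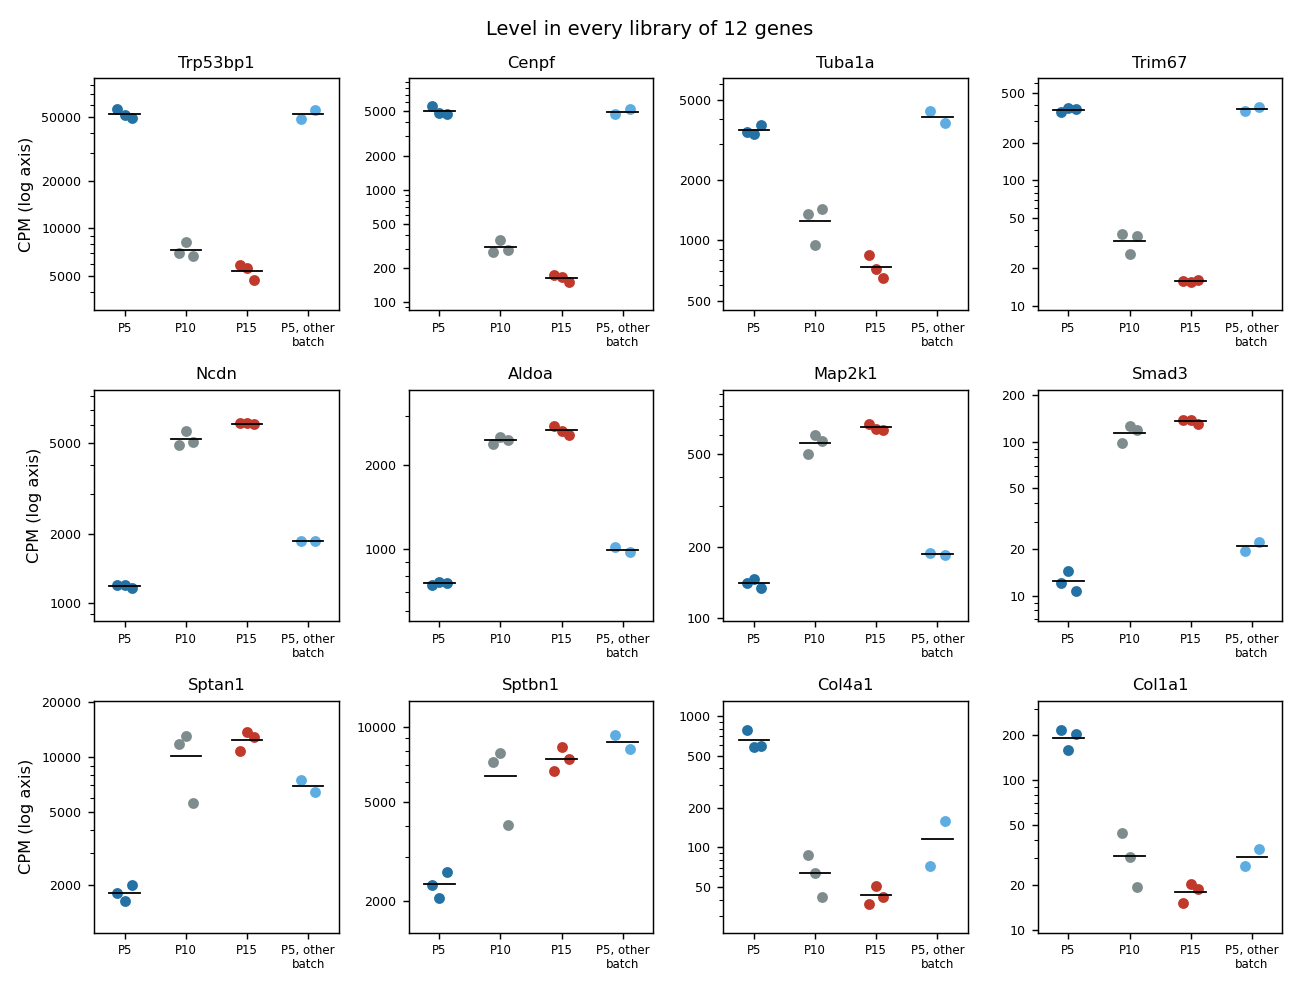
CPM of 12 genes in every library (logarithmic y axes), by age along the x axis, with bars at the mean; the fourth column of points holds the 2 P5 libraries of the other batch. Trp53bp1, Cenpf, Tuba1a and Trim67 are low at P15 and Ncdn, Aldoa, Map2k1 and Smad3 high against both sets of P5 libraries. Sptan1, Sptbn1, Col4a1 and Col1a1 differ between the 2 sets of P5 libraries.

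Small GTPases of the RAC and CDC42 family steer growth cones and spines. Of 76 of these GTPases and their regulators, 32 were higher and 32 lower, and the largest changes were losses. Vav2, an exchange factor that switches such GTPases on, was at 103, 95.4 and 94.5 CPM at P5 and 12.1, 11.7 and 15.2 CPM at P15 (log2 change -2.91 ± 0.09, adjusted p = 4.2e-15). Srgap1, which switches them off in axon guidance, fell 5.97-fold, the GTPase Rac3 5.3-fold and the exchange factor Farp1 4.09-fold. Arhgef25 rose 3.29-fold and Dock10 3.25-fold. Chn1, which encodes the Rac inhibitor alpha-chimaerin, was among the 12 highest gains in CPM (297, 309 and 298 CPM at P5 and 2072, 2062 and 1989 CPM at P15).

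Genes of DNA replication and mitosis had the largest share of members called in 1 direction among the 43 lists. Of 40 tested, 33 were lower and 3 higher, with a median log2 change of -1.52, and 23 fell at least 2-fold. Mki67, present in all dividing cells, stood at 77, 52.2 and 58.5 CPM at P5 and 6.67, 5.96 and 11.9 CPM at P15, Cdk1 at 5.33, 4.01 and 4.44 CPM at P5 and 0.606, 0.217 and 0.221 CPM at P15 and Rrm2, which makes deoxynucleotides, at 17.3, 15.9 and 13.4 CPM at P5 and 2.7, 3.14 and 2.76 CPM at P15. The ages did not overlap for any of them, which for Rrm2 was a condition for naming it. Against the P5 libraries of the other batch 29 were lower and 2 higher. Fewer dividing cells in the sample and less of these mRNAs per cell cannot be told apart in bulk libraries, here and for every gene below. The progenitor markers given above moved with this list, but both lists hold Mki67 and Top2a, so part of this was built in. Eomes, which is among those markers and marks intermediate progenitors, fell (-2.92 ± 0.29). The 3 that rose were Ccne1 (cyclin E1, 1.53 ± 0.11), Mcm6, a subunit of the replication helicase (1.14 ± 0.08), and Orc6 of the origin complex (0.29 ± 0.07), the last not called when scaled by total counts (0.14).

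In the nucleus the changes were smaller. Of 54 genes of DNA and histone methylation and deacetylation, 24 were lower and 15 higher (median -0.12). The demethylase Kdm7a rose 3.73-fold (24, 20.1 and 22.3 CPM at P5 and 86.3, 81 and 80.6 CPM at P15), while Kdm2b fell 2.58-fold and Uhrf1, which guides DNA methylation after replication, fell 5.06-fold. Histone H2B gene Hist1h2bc rose 4.82-fold, linker histone H1f0 rose 1.66-fold, and the macroH2A gene H2afy2 fell 3.73-fold. BAF and NuRD remodeller genes split 16 to 14, or 13 to 22 when scaled by total counts, and 2 related BAF subunits parted. Bcl7b stood at 16.2, 15.8 and 15.5 CPM at P5 and 41.7, 40.1 and 38 CPM at P15 and Bcl7c at 40.3, 40.5 and 43.2 CPM at P5 and 10.5, 10.1 and 9.87 CPM at P15. Of 47 nuclear envelope and pore genes, 23 were lower and 11 higher. Lamin Lmnb1 fell 4.23-fold and Syne1, which ties the nucleus to the cytoskeleton, rose 3.26-fold.

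Among 40 proteins of mRNA stability and localisation, 22 were lower and 10 higher (median -0.21). All 3 members of the fetal Igf2bp family fell. Igf2bp1 was at 2.52, 2.81 and 2.4 CPM at P5 and 0.551, 0.433 and 0.441 CPM at P15, Igf2bp2 at 5.69, 7.67 and 4.8 CPM at P5 and 1.82, 1.08 and 1.43 CPM at P15 and Igf2bp3 at 2.34, 2.22 and 1.08 CPM at P5 and 0.276, 0 and 0.0552 CPM at P15. The P15 levels of Igf2bp3 reach down to the counting floor. Cpeb1, which controls the poly-A tail of dendritic mRNAs, rose 5.62-fold (4.97, 6.35 and 5.04 CPM at P5 and 28.7, 33.4 and 29.9 CPM at P15). Of 59 splicing proteins, 28 were lower and 16 higher, with the muscle and brain splicing factors Rbfox1 (157, 173 and 153 CPM at P5 and 539.9, 527 and 524 CPM at P15) and Mbnl2 (3.02-fold) higher and Hnrnpa1 lower (339, 329.6 and 339 CPM at P5 and 155, 155 and 155 CPM at P15).

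Protein synthesis moved little in size. Of 23 aminoacyl-tRNA synthetases, 13 were lower and 2, Gars (0.19 ± 0.07) and Aimp1 (0.22 ± 0.09), higher, but no member changed 2-fold (median -0.16, and 18 lower and none higher when scaled by total counts). Translation factors split into 19 lower and 13 higher, and Eef1a2, the elongation factor of adult neurons, rose 2.31-fold while Eef1a1 fell 1.28-fold. Of 39 proteasome genes 21 were higher and 3 lower, the highest being Psmc5 (0.63 ± 0.06). The 3 that fell were activator subunits, Psme1 (-0.99 ± 0.08) and Psme2 (-0.58 ± 0.13), which interferon induces, and Psme4 (-0.24 ± 0.09). This direction was not held with other choices: 9 were higher and 7 lower when scaled by total counts, and 6 and 6 against the P5 libraries of the other batch. Chaperone genes likewise were 23 higher and 9 lower, but 15 and 19 when scaled by total counts. Dnajb5 (185, 186 and 184 CPM at P5 and 387, 373 and 402 CPM at P15), Hspa2 (2.27-fold) and Fkbp5, a co-chaperone of the glucocorticoid receptor (53.6, 56.7 and 54.3 CPM at P5 and 118, 122 and 121 CPM at P15), were among those that rose.

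Lysosome and autophagy genes rose more widely, 35 higher and 14 lower of 61 (median 0.37, 28 and 17 when scaled by total counts). Atp6v1g2, a neuronal subunit of the proton pump, stood at 140.4, 142 and 150.1 CPM at P5 and 515, 479 and 493 CPM at P15, and Gabarapl1, which binds autophagosome membranes, at 246, 251 and 250.3 CPM at P5 and 622, 588 and 552 CPM at P15. The lysosomal genes Cd63 (-1.25 ± 0.09), Npc2 (-1.04 ± 0.08) and the protease Ctsz (-1.51 ± 0.16) fell.

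Energy metabolism rose in both of its main branches. Of 38 genes of glycolysis and glucose entry, 22 were higher and 6 lower (median 0.56), and their summed level went from 5330 to 5500 CPM to 9810 to 10800 CPM. Aldoa (aldolase A) was at 739, 759 and 756 CPM at P5 and 2766, 2654 and 2568 CPM at P15 (log2 change 1.83 ± 0.05, adjusted p = 9.9e-16) and Eno2, the neuronal enolase, at 257, 273 and 256 CPM at P5 and 874, 802 and 787 CPM at P15. The smaller number that fell held regulators of the pathway. Pfkfb3, which makes an activator of phosphofructokinase, fell 2.6-fold (38.2, 38.2 and 39.6 CPM at P5 and 14.2, 14.8 and 15.6 CPM at P15) and hexokinase Hk2 2.44-fold. Of 38 genes of the citric acid cycle, the shuttles that feed it and the creatine system, 28 were higher and 7 lower (median 0.41). The shuttle enzymes Got1 (132, 133 and 128 CPM at P5 and 383, 366 and 337 CPM at P15) and Mdh1 (2.11-fold) rose, as did Ogdhl (2.31-fold). Against this, Idh1, the cytosolic isocitrate dehydrogenase that yields NADPH, stood at 169.5, 189 and 215 CPM at P5 and 30.3, 25.3 and 26 CPM at P15 (log2 change -2.81 ± 0.10, adjusted p = 2.3e-10). Both lists kept more members higher when scaled by total counts (22 against 8, and 27 against 8).

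Genes of fatty acid metabolism leaned the other way. Of 48 genes of fatty acid synthesis and oxidation, 24 were lower and 11 higher (median -0.23), and 10 fell at least 2-fold. Fasn, the fatty acid synthase, stood at 528, 490.1 and 481 CPM at P5 and 193, 186 and 186 CPM at P15, and the carrier Fabp5 at 163, 149 and 168 CPM at P5 and 60.1, 56.8 and 49.4 CPM at P15. Cpt1c, the brain form of carnitine palmitoyltransferase, rose 1.67-fold. Of 47 genes of one-carbon, serine and nucleotide synthesis, 18 were lower (38.3%, against 32.5% of all genes) and 10 higher (21.3%, against 33.9%). The median log2 change was -0.06, and 2 members fell at least 2-fold. Their summed level was 2450 to 2480 CPM at P5 and 2750 to 2860 CPM at P15. The mitochondrial folate enzyme Mthfd2 fell 2.62-fold and the purine enzyme Atic 2.23-fold, while Ahcyl2 rose 3.54-fold and Mat2b, a subunit of the enzyme that makes S-adenosylmethionine, 2.42-fold. Ganglioside, sphingolipid and phospholipid enzymes did not lean down on the TMM scale. Of 54 tested, 20 were higher and 14 lower (median 0.03), but 14 and 22 when scaled by total counts. Lpcat4 (log2 change 1.11 ± 0.07) and St3gal5 (0.83 ± 0.06) rose. The largest fall in that list was that of Plppr3, a growth cone protein related to lipid phosphatases. It was at 219.96, 203 and 199 CPM at P5 and 39, 36.5 and 34.1 CPM at P15 (log2 change -2.50 ± 0.06, adjusted p = 3.1e-16).

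Genes for acid and carbonate handling rose, 16 higher and 4 lower of 26 (13 and 7 when scaled by total counts). Car7, a neuronal carbonic anhydrase, stood at 1.56, 2.46 and 2.28 CPM at P5 and 14.3, 14.4 and 15.9 CPM at P15, and the bicarbonate carrier Slc4a4 at 79.8, 88 and 78.4 CPM at P5 and 184, 191 and 191 CPM at P15. Among 51 carriers of amino acids and other solutes, 24 were lower and 17 higher. The glutamate carrier Slc1a2 rose 3.17-fold and the neutral amino acid carriers Slc1a4 and Slc1a5 fell 2.81-fold and 6.6-fold. Slc1a2 and Slc4a4 are strong in astrocytes. Of 16 astrocyte markers, whose summed level is given above and which include Slc1a2, 6 were called higher, 3 lower and 7 neither. The highest change among them was that of the gap junction gene Gjb6 (0.839, 0.539 and 0.66 CPM at P5 and 5.46, 8.18 and 9.65 CPM at P15), while the defining genes Aqp4 (37.1, 33 and 34.1 CPM at P5 and 25.4, 32.8 and 31.9 CPM at P15) and Gfap (100.3, 77.6 and 67.2 CPM at P5 and 95.9, 121 and 137 CPM at P15) were not called. The part of astrocyte RNA in these rises was not tested. The zinc-binding Mt3 rose 2.16-fold, and the peroxide-handling genes Srxn1 and Prdx5 rose 2.91-fold and 2.1-fold.

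Signalling from membrane to nucleus gained members of a few cascades. Of 68 genes of the MAP kinase cascade, 36 were higher and 23 lower (median 0.28). Map2k1, the kinase that activates ERK, was at 141, 147 and 135 CPM at P5 and 673, 640.3 and 633 CPM at P15 (log2 change 2.20 ± 0.05, adjusted p = 1.9e-16). Calcium-driven activators of RAS rose, Rasgrf1 at 75.1, 86.4 and 84.1 CPM at P5 and 488, 471 and 465 CPM at P15 and Rasgrp1 5.18-fold, while Rasgrp2, which acts on RAP, fell 5.84-fold (46.4, 51.7 and 48.2 CPM at P5 and 9.76, 7.85 and 7.45 CPM at P15). The phosphatase Dusp14, which dampens MAP kinases, rose 4.42-fold. Of 63 genes of protein kinase C, phospholipase C and calcium stores, 36 were higher and 15 lower (median 0.31). Those that rose included the diacylglycerol kinases Dgkz (144, 154 and 153 CPM at P5 and 519, 544 and 541 CPM at P15) and Dgkh (3.73-fold), which remove the activator of kinase C. Ncdn (neurochondrin), a neuronal protein outside these lists, was among the highest gains in CPM (1202, 1203 and 1169 CPM at P5 and 6099.9, 6099 and 6024 CPM at P15).

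Cyclic nucleotide genes split 20 to 20. The cAMP phosphodiesterase Pde7b rose 5.19-fold and the calcium-driven Pde1b 2.89-fold, while its relative Pde1c fell 3.12-fold. G protein genes leaned down, 26 lower and 15 higher of 52 (median -0.24). The subunits Gnb4 (91.7, 101 and 97.5 CPM at P5 and 34.9, 36.1 and 33.5 CPM at P15) and Gng4 (2.63-fold) fell, and the regulators that shut G proteins off, Rgs14 (15.9, 19.6 and 16.1 CPM at P5 and 89.1, 100.4 and 93.4 CPM at P15) and Rgs8 (24.1, 25.8 and 25.4 CPM at P5 and 105, 114 and 117 CPM at P15), rose.

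The developmental pathways lost more members than they gained. Lower and higher members numbered 26 and 11 of 58 for Wnt, 30 and 10 of 54 for Notch, Hedgehog and Hippo (median -0.52), 30 and 12 of 51 for TGF-beta and BMP (median -0.39), and 36 and 11 of 61 for the FGF, IGF, PDGF, VEGF and EGF families (median -0.59). Each list kept more members lower against the P5 libraries of the other batch. Among receptors, the Wnt receptor Fzd9 stood at 22.3, 19 and 19.7 CPM at P5 and 5.46, 4.82 and 5.13 CPM at P15, the receptor kinase Ror2, which also binds Wnt proteins, fell 10.8-fold, and Notch3, also a gene of mural cells, stood at 15.2, 13.5 and 13 CPM at P5 and 2.59, 2.98 and 4.03 CPM at P15. Dner, a transmembrane ligand of Notch, was the most abundant of those named (379, 372 and 369.6 CPM at P5 and 83.4, 88 and 73.5 CPM at P15). Among nuclear effectors Tead2 of the Hippo pathway fell 4.61-fold and Lef1 of the Wnt pathway 3.88-fold. Igfbpl1, an IGF-binding protein of young neurons, fell 6.63-fold and Igfbp2 4.22-fold. Some members rose within these lists. Smad3, which carries TGF-beta signals to the nucleus, stood at 12, 14.4 and 10.6 CPM at P5 and 139, 139 and 131 CPM at P15 (log2 change 3.46 ± 0.08, adjusted p = 7.7e-16) and Bambi, a decoy receptor of the family, at 3.53, 2.87 and 2.28 CPM at P5 and 14.9, 18.7 and 15.3 CPM at P15. The ligands Wnt9a (4.35-fold) and Wnt10a (6.68-fold), the Notch target Hey1 (2.88-fold) and the coactivator Maml2 (3.34-fold) rose too.

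Circadian clock genes had the highest share of members higher among the 43 lists on the TMM scale (75%). The clock is a loop in which CLOCK and BMAL1, encoded by Clock and Arntl, switch on Per, Cry and Nr1d genes through the E-box, and the PAR factors Dbp, Tef and Hlf act through the D-box. Promoters of 4 members that rose are shown here because they carry these letters in the 250 bases before the RefSeq start (GRCm38.p6, gene strand, 5′ to 3′). Capitals mark the E-box CACGTG in Per1 (chr11:69098699-69098948, strand +), Bhlhe41 (chr6:145865421-145865670, strand -) and Ciart (chr3:95882229-95882478, strand -) and the D-box TTATGTAA in Per3 (chr4:151044666-151044915, strand -).
Per1: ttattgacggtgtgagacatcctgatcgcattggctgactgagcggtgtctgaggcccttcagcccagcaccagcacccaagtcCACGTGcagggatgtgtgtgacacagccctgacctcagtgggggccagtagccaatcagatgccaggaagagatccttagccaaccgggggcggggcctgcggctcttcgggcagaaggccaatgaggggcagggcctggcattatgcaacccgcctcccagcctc
Bhlhe41: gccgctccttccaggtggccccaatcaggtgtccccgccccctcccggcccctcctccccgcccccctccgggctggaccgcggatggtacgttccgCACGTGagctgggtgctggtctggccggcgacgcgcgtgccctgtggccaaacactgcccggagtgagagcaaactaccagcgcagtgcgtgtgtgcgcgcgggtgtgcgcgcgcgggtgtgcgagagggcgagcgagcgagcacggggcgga
Ciart: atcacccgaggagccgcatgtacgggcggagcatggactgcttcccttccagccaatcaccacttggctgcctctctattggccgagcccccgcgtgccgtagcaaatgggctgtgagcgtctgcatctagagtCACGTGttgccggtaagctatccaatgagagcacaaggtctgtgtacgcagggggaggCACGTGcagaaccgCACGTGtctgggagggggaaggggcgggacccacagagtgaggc
Per3: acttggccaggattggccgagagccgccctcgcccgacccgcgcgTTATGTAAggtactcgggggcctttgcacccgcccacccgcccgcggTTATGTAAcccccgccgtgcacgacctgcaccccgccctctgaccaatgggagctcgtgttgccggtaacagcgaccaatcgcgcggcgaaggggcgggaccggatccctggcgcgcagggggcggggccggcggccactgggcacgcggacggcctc
The E-box, which reads the same on both strands, was found in 5 of the 20 clock genes with a promoter in the table (25%) and in 9.79% of 11283 genes tested. The D-box, searched on both strands, was found in 1 of the 20 and in 0.603% of the same genes. Ciart holds 3 E-boxes and Per3 holds 2 D-boxes. A match describes letters, not a bound site, and one of the 5 was Cry1, which was not called.

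Of 24 clock genes, 18 were higher and 1 lower, with a median log2 change of 1.02, and 12 rose at least 2-fold. The count was 16 higher and 1 lower when scaled by total counts, and 16 and 2 against the P5 libraries of the other batch. The output factor Hlf changed most of the 24. It stood at 9.1, 11.3 and 9.84 CPM at P5 and 132, 136 and 108 CPM at P15 (log2 change 3.63 ± 0.10, adjusted p = 2.2e-12) and Tef at 133, 137 and 139 CPM at P5 and 503, 508 and 494 CPM at P15 (log2 change 1.88 ± 0.05, adjusted p = 4.9e-16), while Dbp went from 14.5 ± 0.844 to 40.1 ± 3.66 CPM. Among repressors Bhlhe41 stood at 6.89, 7.13 and 7.8 CPM at P5 and 40, 41.1 and 39.2 CPM at P15 and Per3 at 9.16, 9.52 and 8.22 CPM at P5 and 28.5, 34 and 32.9 CPM at P15. Per1 rose less (42.8, 43.1 and 40.5 CPM at P5 and 76.1, 73.3 and 79.2 CPM at P15), as did Per2 (0.68 ± 0.09), and Ciart went from 3.36 ± 0.733 to 9.77 ± 0.666 CPM. Nr1d1 and Nr1d2, the REV-ERB receptors, rose 2.58-fold and 2.43-fold. In the activating arm Clock rose 2.34-fold, but Arntl (0.26 ± 0.08) and Npas2 (0.26 ± 0.08) rose little, and neither was called when scaled by total counts (log2 changes 0.11 and 0.12). The call of Npas2 also ended without P15 replicate 1 (0.21). Cry1 (19.8, 14.1 and 16.6 CPM at P5 and 17, 17.5 and 17.4 CPM at P15) and Nfil3, the repressor at the D-box (0.15 ± 0.12), were not called. Csnk1e, a kinase that marks PER proteins for decay, was the 1 gene that fell (-0.76 ± 0.05). The labels give no time of day, so age and the hour of collection cannot be told apart for these genes.

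**Figure D4:**
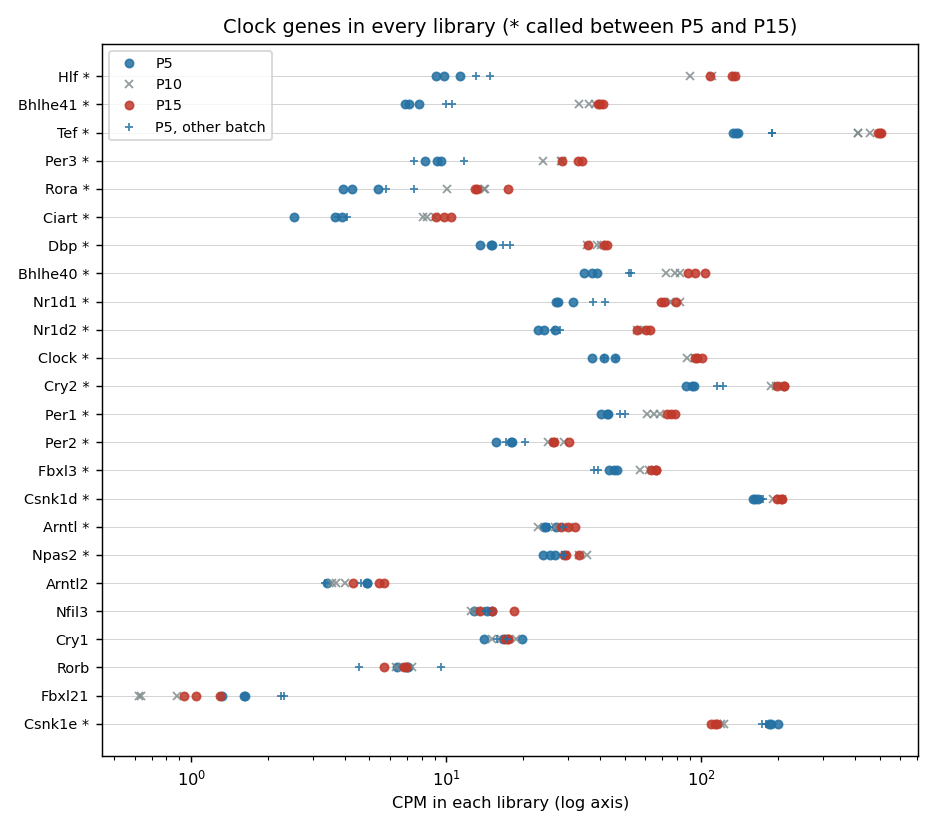
CPM of 24 clock genes in every library (logarithmic x axis), ordered by the fitted change from P5 to P15. The P15 libraries lie to the right of the P5 libraries for the 18 genes called higher, and the P10 libraries lie near those of P15 for Hlf, Tef and Bhlhe41.

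Klf9, a transcription factor induced by glucocorticoid and thyroid hormone, was at 99.9, 108 and 106 CPM at P5 and 515, 504 and 493 CPM at P15 (log2 change 2.27 ± 0.05, adjusted p = 1.3e-16). The glucocorticoid receptor Nr3c1 rose 3.32-fold and the mineralocorticoid receptor Nr3c2 1.49-fold. Nr4a1 rose 4.79-fold and its relative Nr4a3 fell 2.83-fold (209, 221 and 214 CPM at P5 and 76.3, 76 and 75.4 CPM at P15). Nuclear receptors and partners as a list were 21 higher and 15 lower of 53, or 16 and 17 when scaled by total counts. The cellular retinoic acid-binding protein Crabp1 had the largest fall of all fold-ranked genes (27.1, 22.4 and 24.8 CPM at P5 and 0.22, 0.487 and 0.276 CPM at P15, log2 change -6.21 ± 0.20, adjusted p = 8.2e-15).

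Of 75 homeobox, SOX and forkhead factors, 34 were lower and 17 higher (median -0.35). Sox4 (95.7, 93.2 and 94.1 CPM at P5 and 20.5, 23.3 and 24.9 CPM at P15) and Sox11 (178, 177 and 168 CPM at P5 and 46.2, 48.9 and 50.2 CPM at P15), which act in newborn neurons, fell, and Foxo3 rose 2.93-fold. Of 73 bHLH, MEF2, KLF, NFI and ETS factors, 32 were lower and 23 higher. The neuronal differentiation factors Neurod6 and Neurod1 fell 3.08-fold and 2.21-fold, and Klf7, a factor of axon growth, 2.55-fold. For Neurod1 the change was smaller against the other P5 libraries (log2 change -0.36 in place of -1.14). Elk1, a target of ERK, rose 3.03-fold and Mef2d 2.47-fold.

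Extracellular matrix and integrin genes fell widely, 61 lower and 16 higher of 89 (median -0.90), with 41 lower at least 2-fold. Lama4 was at 3200.3, 2878 and 2777 CPM at P5 and 207, 197 and 168 CPM at P15, Tnc, a matrix protein of stem cell niches and one of the progenitor markers above, at 92.3, 75 and 78 CPM at P5 and 6.34, 8.07 and 12 CPM at P15, and Has2, which makes hyaluronan, at 3.17, 2.81 and 2.46 CPM at P5 and 0.0551, 0.162 and 0.441 CPM at P15. The basement membrane collagens Col4a1 (791, 581 and 591 CPM at P5 and 37.1, 50.9 and 42.1 CPM at P15) and Col4a2 (11.3-fold lower) and the fibrous collagens Col1a1 (214, 159 and 202 CPM at P5 and 15.1, 20 and 18.7 CPM at P15) and Col3a1 (20.9-fold lower) fell as well. In the P5 libraries of the other batch Col4a1 stood at 72.4 and 158 CPM and Col1a1 at 26.6 and 34.4 CPM, and the log2 change of Col1a1 was -0.79 in place of -3.42. Against those libraries Col4a1 (-1.44) and Col4a2 (-1.11) were no longer called. Markers of fibroblasts, choroid plexus and blood moved with the collagens, from 931 to 1190 summed CPM to 213 to 320, with 477 to 480 in the other P5 libraries. Endothelial and mural markers went from 172 to 225 to 84.8 to 117 CPM. Their part in the fall was not tested. Matrix genes that rose included Sparcl1, also made by astrocytes (294, 323 and 301 CPM at P5 and 906, 901 and 886 CPM at P15), the membrane protease Mmp17 (2.79-fold) and Hapln4, which links the matrix around mature neurons (1.08, 1.32 and 1.26 CPM at P5 and 7.22, 8.23 and 9.49 CPM at P15).

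Of 36 apoptosis genes, 12 were higher and 12 lower. The BH3 protein Bid, which promotes cell death, fell 2.07-fold, and the survival gene Bcl2l2 rose 2.52-fold. Of 47 genes of antigen presentation, complement and interferon, 13 were lower and 10 higher. The cytokine Il33, which glia also make, stood at 0.779, 1.56 and 1.14 CPM at P5 and 16.1, 17.9 and 15.5 CPM at P15, its receptor partner Il1rap rose 3.07-fold, and the interferon-induced Ifitm2 fell 8.61-fold.

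Ranked by fold, and without synapse and marker genes, the top was held by genes close to absent at P5. Ptgs2, the inducible cyclooxygenase, stood at 0.0599, 0.12 and 0.36 CPM at P5 and 11.6, 12.6 and 12.4 CPM at P15, Pla2g2f, a secreted phospholipase, at 0.12, 0.24 and 0.06 CPM at P5 and 6.94, 7.09 and 7.23 CPM at P15, and Tnnt2, a troponin known from heart muscle, at 0.0599, 0.419 and 0.18 CPM at P5 and 10.2, 10.4 and 10.8 CPM at P15. Their P5 libraries lie at or near the counting floor, so the fitted folds are imprecise. Anxa11 (annexin A11, 2.4, 3.11 and 2.94 CPM at P5 and 71, 64.1 and 68.9 CPM at P15), the hormone receptor Glp2r (1.26, 1.44 and 1.2 CPM at P5 and 23.4, 21.6 and 23.4 CPM at P15) and Ankrd33b (3.47, 4.31 and 3.96 CPM at P5 and 65.8, 61.7 and 60.9 CPM at P15) rose from measurable levels. Each was already higher in the other P5 libraries (6.09 and 7.3, 4.07 and 3.68 and 11.1 and 10.1 CPM), well under P15. Fa2h, a myelin lipid enzyme (0.719, 0.0599 and 0.06 CPM at P5 and 4.24, 5.41 and 6.12 CPM at P15), also rose. The part of oligodendrocytes in its rise was not tested.

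At the other end, Trim67, a brain ubiquitin ligase, was at 350.4, 381 and 369.6 CPM at P5 and 15.7, 15.5 and 15.9 CPM at P15 (log2 change -4.55 ± 0.06, adjusted p = 1.8e-19), with 358 and 386 CPM in the other P5 libraries. St8sia2, which puts polysialic acid on the adhesion molecule NCAM, stood at 109.7, 116 and 107 CPM at P5 and 6.56, 4.49 and 5.63 CPM at P15, Draxin, an axon guidance protein, at 92, 91.3 and 93.8 CPM at P5 and 3.75, 4.22 and 6.23 CPM at P15, and Cd24a, a surface protein of newborn neurons, at 293, 313 and 387 CPM at P5 and 16.4, 13.3 and 25.5 CPM at P15. The receptor Pth2r (22.3, 19.9 and 20.8 CPM at P5 and 1.38, 0.65 and 0.607 CPM at P15) and the glycosidase gene Mgam (42.3, 31 and 23.5 CPM at P5 and 0.992, 0.541 and 0.827 CPM at P15) fell too. No P5 library of these genes overlapped a P15 library, which was a condition for naming them.

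Within families the proportion of related genes often shifted. In 36 pairs of related genes, the log2 ratio of the one to the other (CPM + 0.5) did not overlap between ages in 33. In 25 of these the gene named before the slash in the plot of ratios gained, and in 8 the gene after it. Single genes did not overlap in 70.2% of all genes tested, and no share was taken over unrelated pairs. The count of pairs is therefore not read as a trait of families. Both genes were called in opposite directions in 5 pairs. Tuba4a gained on Tuba1a by 3.55 (from -3.71 ± 0.12 to -0.16 ± 0.10), and Eef1a2 on Eef1a1 by 1.57. In lamins Lmna gained on Lmnb1 by 2.29, in Polycomb methylases Ezh1 on Ezh2 by 2.13, and in the eIF4A helicases Eif4a2 on Eif4a1 by 0.83. Lmna was called higher by 0.28 ± 0.07, a rise that missed the threshold when scaled by total counts (log2 change 0.13). Other shifts came from the fall of 1 partner, as for Tmsb4x over Tmsb10 (2.35), Hmgb1 over Hmgb2 (1.92) and Bcan over Vcan (1.84), or the rise of 1, as for lactate dehydrogenase Ldhb over Ldha (1.36) and phosphofructokinase Pfkm over Pfkp (1.18). Aldoa gained on Aldoc, the aldolase of astrocytes, by 1.02. This shift depended on the P5 libraries used. The log2 ratio of Aldoc to Aldoa was -3.91 ± 0.19 at P5 and -4.94 ± 0.21 at P15. In the P5 libraries of the other batch it was already -4.66 to -4.5. Profilins Pfn2 and Pfn1 kept their ratio within the spread of the libraries, a shift of -0.02.

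**Figure D5:**
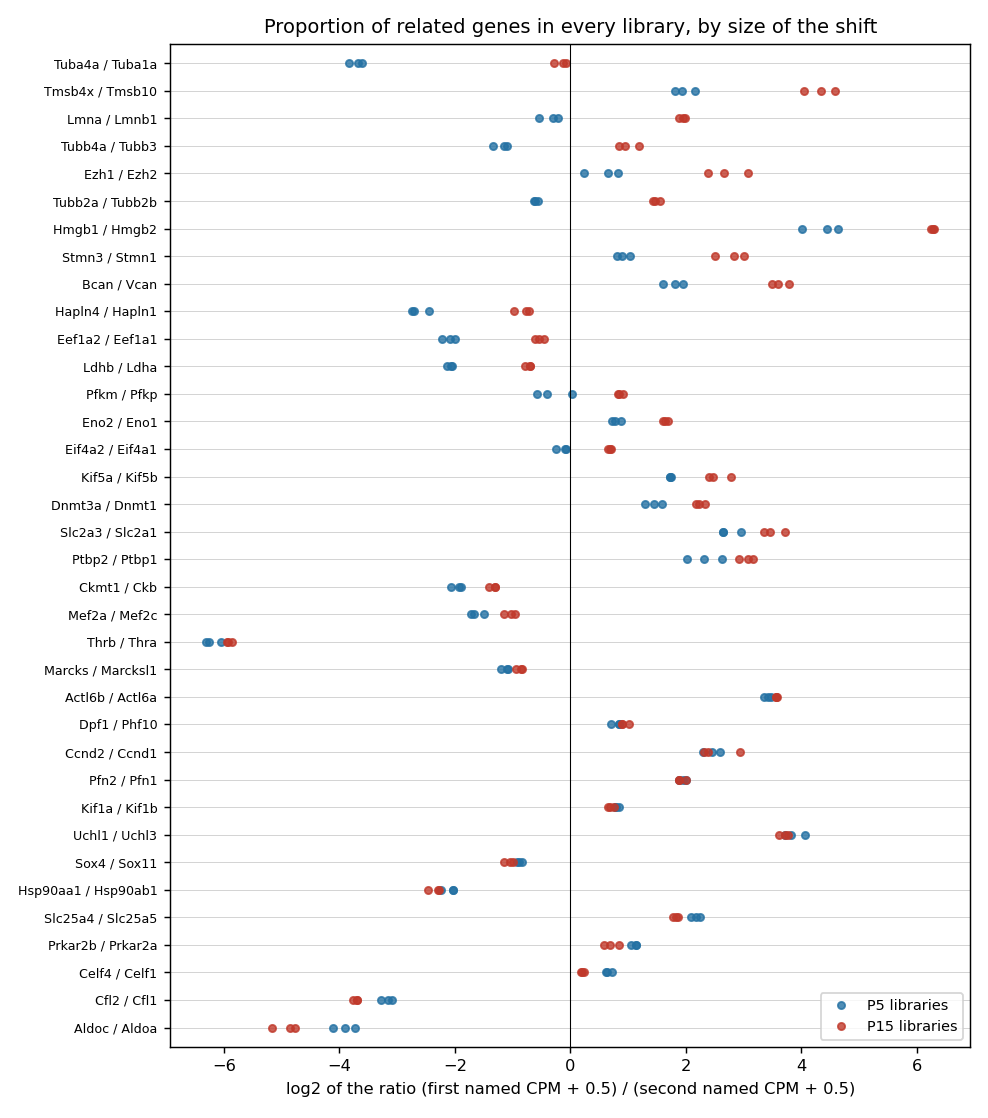
Log2 ratio of the CPM of 2 related genes (x axis, 0.5 CPM added to each) in each of 3 P5 libraries (blue) and 3 P15 libraries (red), for 36 pairs ordered by the size of the shift. A ratio further right means more of the gene before the slash; the tubulin pair Tuba4a and Tuba1a moved most, by 3.55.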

How the data were processed

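The deposited table held raw counts, 1 column per library and 32245 gene symbols (10690 at 0 in all 6 libraries). Per the labels, RNA bound to HA-tagged ribosomes went into stranded poly-A libraries. The submitters' processing notes name STAR 2.7.5b, featureCounts, SAMtools 1.10 and mm10. The annotation, the strand setting and the handling of reads matching several genes were not given in the sources used here, so near-identical and overlapping genes are uncertain. Of the 14555 symbols tested, 14442 (99.2%) were found in GENCODE vM21.

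Counts were fitted with edgeR 4.0.16 in R 4.3.3: scaling by TMM, low counts removed by filterByExpr with age as the group, robust quasi-likelihood, Benjamini-Hochberg adjustment over all genes tested, threshold 0.05, 4 residual degrees of freedom. Each standard error was taken as the log2 change over the square root of F. Libraries of the same age always differed by more than counting noise (chi-square over its degrees of freedom, 3.7 to 8.93). Same-numbered libraries did not deviate together (correlations -0.143, 0.05 and -0.15). In simulated counts, 98 of 14424 genes were changed 2-fold and 99 were changed 1.5-fold. Of these changes 87.8% and 63.6% were recovered, and 9.15% of 164 calls were unchanged genes. Far fewer genes changed there than were called in the data (66.4%), so these rates do not carry over to this comparison. The floor of 3 counts covers counting error only.

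The libraries compared and the gene lists were chosen with earlier results of these data known. Named genes are the 12 largest gains and losses in CPM, the 12 highest and lowest log2 changes with at least 5 CPM in 1 age (without synapse and marker genes), the 2 members of each list and direction with the smallest p, and the related pairs, among genes called whose ages do not overlap (pairs excepted), without predicted, pseudogene, mitochondrial, hemoglobin and sex-linked symbols. 67 further genes, named for their roles, were chosen after their values were seen. Not every gene under the rule is printed, and some are not reported here. Lists have no test of their own. Alternatives were other scalings, filters, DESeq2 1.42.0, limma-voom (limma 3.58.1), more libraries, the P5 libraries of the other batch, the replicate number as a block and each library left out.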

Additional observations from a re-analysis of the deposited data

How the results depend on the processing

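Counts of called genes stayed within 1.5 times their value over the alternatives run, with 2 exceptions, the test against a 1.5-fold change and the higher calls of the last scaling below. Apart from that test, called genes numbered 8595 to 10095 (the most with no filter on low counts), those at least 2-fold higher 840 to 1354 and those at least 2-fold lower 1566 to 2364. The test against a 1.5-fold change called 3709, 1692 higher and 2017 lower. Leaving out 1 library gave 8909 to 9565 called genes, 4564 to 4887 higher, 4323 to 4678 lower, and 1158 to 1251 and 1780 to 1989 at least 2-fold higher and lower. DESeq2 called 8973 and limma-voom 9676. With the replicate number as a block 9123 were called (4661 higher, 4462 lower, 1184 and 1804 at least 2-fold). Same-numbered libraries did not deviate together, but the labels do not say whether the numbers pair them. With the P5 libraries of the other batch in place of those of the batch, 7485 calls were shared in direction and 47 were opposite. Scaling decided the balance: total counts without the 24 genes of largest change in CPM, chosen after seeing the data, called 3284 higher (against 4935) and 6587 lower, with a median log2 change of -0.20.

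Of 314 named genes called, 290 had the same call in all 17 settings. Against the P5 libraries of the other batch the log2 change turned for Ank2 (-0.96), Dbn1 (-0.47), Gars (-0.23), Hsp90ab1 (-0.32), Kif1a (-0.11), Kif1b (-0.14), Mef2c (-0.02), Myh10 (-0.52) and Sptbn1 (-0.25), and the cause was not tested. Scaled by totals without the 24 genes it turned for Actl6b (-0.04), Gars (-0.02), Hsp90ab1 (-0.04), Kif1a (-0.02) and Mef2c (-0.01). With that scaling Prox1 (-0.16), Tmsb4x (-0.18) and Tubb4a (-0.16), not called on the TMM scale, were called lower. By total counts Tmsb4x (-0.11) was called lower too, where each change is lower by construction. Leaving out 1 library ended the call of 7 genes, Aimp1, Gars, Npas2, Phf10, Psme4, Ptbp2 and Thra. Libraries number 3 per age, and levels under 0.162 to 0.18 CPM cannot be told from 0.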
